A study of Mus musculus with 9 samples.

Results

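A set of 45 genes was higher in the retinas of both Cre positive genotypes than in those of Cre- animals, among 55487 genes in the deposited expression table. A gene was taken when its lowest value over the 6 Cre positive libraries was at least 0.5 CPM (reads of a gene per 1000000 reads on genes) and at least 1.3 times the highest value over the 3 Cre- libraries, and when the tHet mean and the Tet tcKO mean were each at least 2 times the Cre- mean. These criteria were met by 80 rows. The 35 rows left out by name were 21 predicted genes named Gm with a number, 4 names ending in Rik, 6 collagen genes and Abcd4, Optc, Fbln1 and Vcan. The genes were thus chosen for their levels relative to Cre-, so their excess over Cre- is described here, and counts of calls against Cre- are given only beside those of all genes. The choice did not compare Tet tcKO with tHet, and this comparison is tested. The choice was made on the same libraries, however, and set a floor relative to Cre- under both genotypes. Counts of members that rose or fell between Tet tcKO and tHet are thus not independent of the choice.

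Bulk RNA-seq of whole retina was carried out at postnatal day 21 (P21) in 3 genotypes of mice of the C57 BL/6J strain, with 3 libraries per genotype and the retinas of 2 animals pooled in each library. tHet animals were triple heterozygous (Tet1 loxp/+, Tet2 loxp/+, Tet3 loxp/+) and Tet tcKO animals were homozygous for all of these floxed alleles (loxp/loxp at each gene), and both carried a Cre-GFP transgene, which drives Cre in retinal progenitor cells and is known to be mosaic. Cre positive animals were bred to each other so that tHet and Tet tcKO animals held 2 copies of the transgene. Cre- animals came from separate Cre- breeders and carry the genotype label WT, and whether they held floxed alleles is not given in the sources used here. The transgene, the breeding line and the loss of 1 or both alleles of the Tet genes therefore cannot be told apart in a difference between Cre- and both other genotypes. Nothing states that libraries with the same number were prepared together, and p-values measure the spread between pools of animals.

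The TET enzymes oxidise 5-methylcytosine in DNA, the first step of active demethylation, and the study asked what their loss in progenitors does to the retina. By P21 the mouse retina has stopped producing neurons, and genes of progenitors and of dividing cells are normally low. The genes described here include ZIC transcription factors of the embryonic neural tube and optic cup, proteins of the extracellular matrix and of the vitreous, the gel that is secreted largely by the ciliary body at the margin of the retina, and TRIM family genes that are known for expression in early embryos.

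Between 9627927 and 21108256 reads per library were on genes, so a single read was worth 0.0474 to 0.104 CPM. Rods, cones, bipolar cells, amacrine cells, horizontal cells, ganglion cells and Müller glia were all represented by their markers, none of which was at 0 in all libraries, and in Tet tcKO 5 of the 6 rod genes tested had fallen relative to tHet (4 with totals that leave out the ribosomal RNA gene named below). In bulk tissue, fewer cells of a type and less RNA per cell cannot be told apart. The CPM of Tet3 was 235 ± 29.2 (SD, n = 3) in Cre- retinas, 237 ± 71.5 in tHet retinas and 119.7 ± 28.2 in Tet tcKO retinas, and none of Tet1, Tet2 and Tet3 passed the test in any comparison. Reads over whole genes include exons outside the floxed part, so these values are no check of the deletion. A single ribosomal RNA gene, CT010467.1, took 28.7% of the reads on genes in Tet tcKO 3 and 3.72% in tHet 3, and 0.0409% to 0.226% in the other 7 libraries. Every CPM of Tet tcKO 3 is lowered by that share of its total, and where leaving CT010467.1 out of the totals changes a call of a member, or whether its Tet tcKO and tHet libraries overlap, this is given.

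Across the 45 genes, the tHet mean was 2.01 times (Trim16) to 20.6 times (Trim43b) the Cre- mean, with a median of 3.46. The Tet tcKO mean was 2.07 times (Duxbl1) to 205 times (Fabp7) the Cre- mean, with a median of 4.64. Most of the genes were scarce in Cre- retinas, with a median of 36 reads over all 3 Cre- libraries and a range from 3 reads (Cpz) to 1288 reads (Iqgap2). Per kilobase of exon, the median level was 0.267 CPM per kb in Cre-, 0.698 CPM per kb in tHet and 1.15 CPM per kb in Tet tcKO. The highest member in Cre- on this scale was Iqgap2 at 4.70 CPM per kb, and the highest in Tet tcKO was Fabp7 at 104.5. Just inside the margin of 1.3 were Fam167a, with a ratio of lowest Cre positive to highest Cre- value of 1.305, and Slc7a11, with 1.31. Just outside it were Ano1 with 1.29 and Sned1 with 1.25.

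The sum of CPM over the 45 genes was 105, 83.5 and 105 in Cre- 1, 2 and 3. It was 259, 283 and 417 in the tHet libraries and 583, 572 and 464 in the Tet tcKO libraries. Fabp7 made up a large part of the Tet tcKO sums, which were 410.0, 473 and 345 without it, whereas the tHet sums without it were 257, 281 and 416. Relative to the Cre- mean of each gene, the median gene stood at 3.03, 3.17 and 3.71 times in the tHet libraries and at 5.02, 5.39 and 3.41 times in the Tet tcKO libraries. The libraries of a genotype were thus not equal. tHet 3 held the highest tHet value for 29 of the 45 genes (64.4%), against 20.8% of all genes tested. Tet tcKO 3 held the lowest Tet tcKO value for 31 (68.9%), a share near the 69.8% of all genes. With totals that leave out CT010467.1, Tet tcKO 3 was lowest for 17 genes (32.3% of all genes), its sum was 652 and its median gene stood at 4.79 times the Cre- mean, while tHet 3 was highest for 30 genes (23.7% of all genes).

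**Figure D1:**
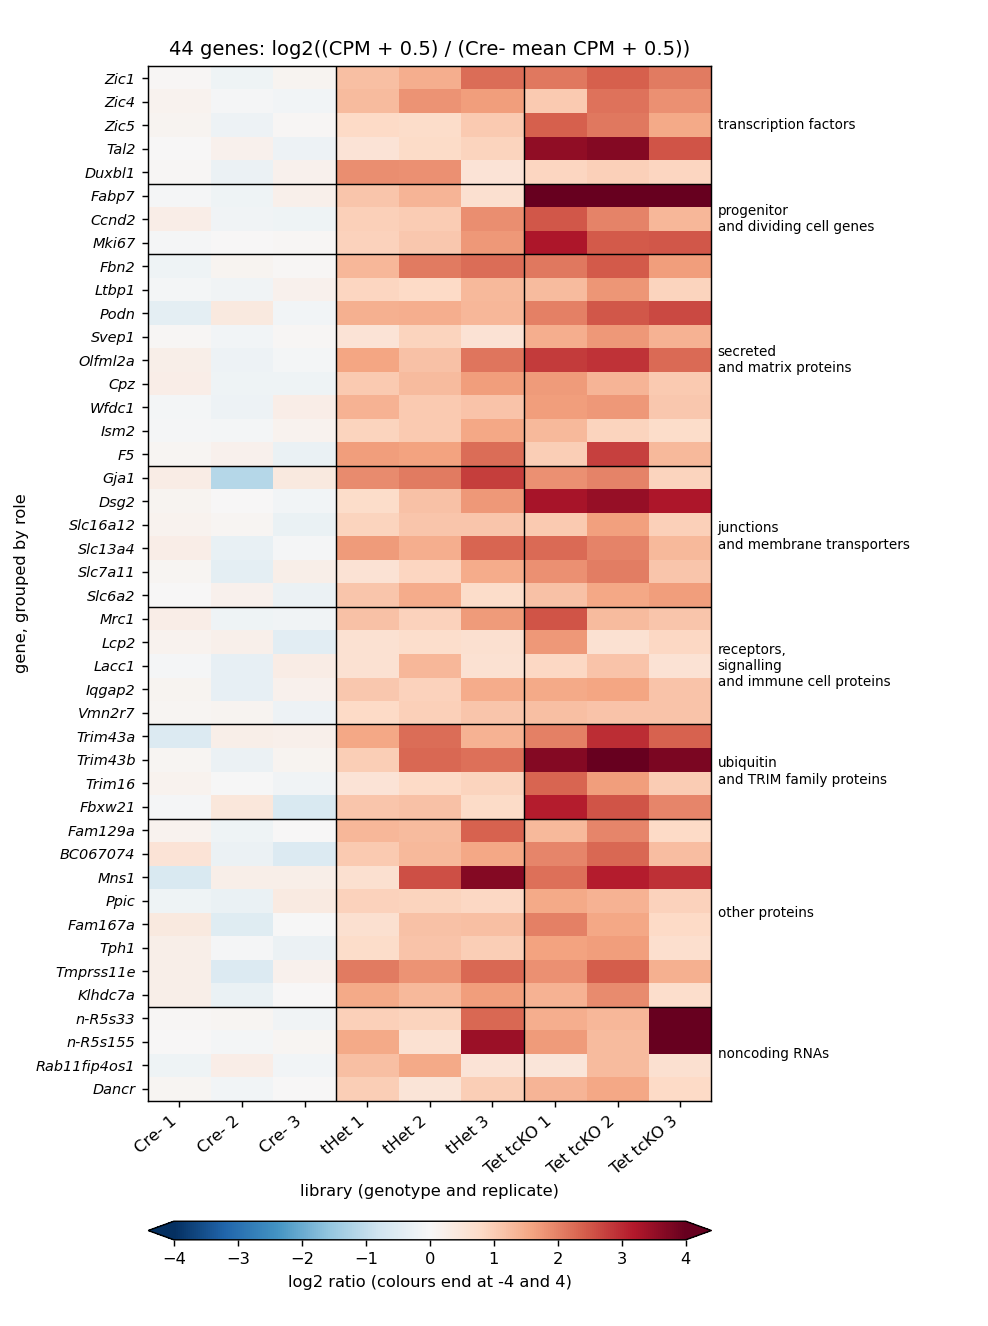
Each row is 1 of 44 of the 45 genes, grouped by role, and each column 1 of the 9 libraries. Colour gives log2 of (CPM + 0.5) over (Cre- mean CPM + 0.5), from blue for lower to red for higher with colours ending at -4 and 4. All cells of the 6 Cre positive libraries are red, as the choice of the genes requires, and the colour reaches the end of the scale for Fabp7 in all 3 Tet tcKO libraries, for Trim43b in Tet tcKO 2 and for n-R5s33 and n-R5s155 in Tet tcKO 3.

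Transcription factors made up 5 of the 45 genes. Zic1, Zic4 and Zic5 encode zinc finger proteins that pattern the neural tube and are expressed in the early eye. Zic1 (chr9:91358058-91365810) and Zic4 (chr9:91362413-91389348) lie on opposite strands of chromosome 9 and share 60 bp of exon sequence, and Zic5 (chr14:122456795-122465677) lies next to Zic2 on chromosome 14. Tal2 (chr4:53779705-53788712) encodes a basic helix-loop-helix protein, and Duxbl1 (chr14:25978577-25990088) encodes a double homeobox protein. The 250 bases before a RefSeq start of Zic1, Zic4, Zic5 and Tal2 are shown to compare how many CpG dinucleotides, the substrate of DNA methylation, each holds. They are read from RefSeq on GRCm38.p6, 5′ to 3′ on the strand of the gene, with each CG in capitals. The RefSeq start used for Zic4 lies inside the gene span given above, so its window is within that span. The other windows lie at the start of their spans.
Zic1, chr9:91365769-91366018, minus strand, 27 CG: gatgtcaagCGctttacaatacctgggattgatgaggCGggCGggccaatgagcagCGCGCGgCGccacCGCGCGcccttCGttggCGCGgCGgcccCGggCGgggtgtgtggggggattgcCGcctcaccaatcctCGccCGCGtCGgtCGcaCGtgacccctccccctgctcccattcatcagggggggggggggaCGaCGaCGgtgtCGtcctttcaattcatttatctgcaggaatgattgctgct
Zic4, chr9:91368722-91368971, plus strand, 4 CG: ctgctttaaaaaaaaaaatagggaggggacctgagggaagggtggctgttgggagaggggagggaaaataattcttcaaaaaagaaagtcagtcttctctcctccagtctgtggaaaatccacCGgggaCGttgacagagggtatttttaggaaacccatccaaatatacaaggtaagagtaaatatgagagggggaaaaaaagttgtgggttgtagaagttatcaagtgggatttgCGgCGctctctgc
Zic5, chr14:122465659-122465908, minus strand, 11 CG: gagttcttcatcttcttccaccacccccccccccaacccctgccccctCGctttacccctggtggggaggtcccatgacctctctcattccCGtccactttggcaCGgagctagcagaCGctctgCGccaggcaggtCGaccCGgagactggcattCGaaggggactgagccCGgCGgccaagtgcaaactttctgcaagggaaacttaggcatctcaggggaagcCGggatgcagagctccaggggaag
Tal2, chr4:53779451-53779700, plus strand, 11 CG: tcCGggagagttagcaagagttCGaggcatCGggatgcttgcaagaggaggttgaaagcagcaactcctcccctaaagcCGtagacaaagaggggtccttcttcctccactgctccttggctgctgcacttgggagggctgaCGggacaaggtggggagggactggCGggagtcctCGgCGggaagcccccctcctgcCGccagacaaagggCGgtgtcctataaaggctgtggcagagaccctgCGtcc

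Zic1 was present at 5.89, 4.96 and 6.14 CPM in Cre-, 13.8, 16.3 and 28.7 CPM in tHet and 25.9, 31.8 and 25.7 CPM in Tet tcKO. All Tet tcKO libraries lay above tHet 1 and tHet 2, but tHet 3 lay within the Tet tcKO range. The log2 fold change between Tet tcKO and tHet was 0.56 ± 0.27 (SE) and did not pass the test (adjusted p = 0.297, limma). Zic4, transcribed away from Zic1, was lower, at 0.589, 0.445 and 0.405 CPM in Cre-, 1.87, 2.91 and 2.61 CPM in tHet and 1.54, 3.89 and 3.01 CPM in Tet tcKO. Here the lowest of the 6 Cre positive libraries was Tet tcKO 1, and the groups overlapped (log2 fold change 0.11 ± 0.35). Zic1 and Zic4, whose windows above hold 27 and 4 CG, were 3.46 and 5.13 times Cre- in tHet. The Zic4 window lies inside its gene span and the Zic1 window at the start of its span, so these CG counts are of unlike positions. Zic5 differed in order from both: its values were 1.77, 1.34 and 1.69 CPM in Cre-, 3.17, 3.01 and 3.79 CPM in tHet and 10.5, 8.5002 and 5.54 CPM in Tet tcKO, and every Tet tcKO library lay above every tHet library. The difference of 1.14 ± 0.32 on the log2 scale had an adjusted p of 0.0356 (limma), above the threshold of 0.01. It was 1.28 with an adjusted p of 0.00652 (limma) when CT010467.1 was left out of the totals, and passed.

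Zic2, the neighbour of Zic5 and no member of the set, was at 2.53, 1.72 and 2.295 CPM in Cre-, 3.38, 2.91 and 5.07 CPM in tHet and 13.004, 10.3 and 6.98 CPM in Tet tcKO, and its lowest Cre positive value was less than 1.3 times its highest Cre- value. Tal2 rested on few reads in Cre-, 11 over all 3 libraries. Its values were 0.235, 0.318 and 0.135 CPM in Cre-, 0.576, 0.727 and 0.853 CPM in tHet and 8.02, 8.698 and 3.67 CPM in Tet tcKO. The Tet tcKO libraries were at least 3.67 CPM and every tHet library was below 1 CPM. Tal2 rose from tHet to Tet tcKO by 2.51 ± 0.35 on the log2(CPM + 0.5) scale (adjusted p = 0.000114, limma). Duxbl1 went the other way, with 2.001, 1.59 and 2.23 CPM in Cre-, 8.43, 8.101 and 3.08 CPM in tHet and 3.92, 4.22 and 3.91 CPM in Tet tcKO. tHet 1 and tHet 2 lay above all Tet tcKO libraries and tHet 3 lay below them, and the log2 fold change of -0.53 ± 0.35 did not pass the test. The transcripts of Duxbl1 and of its copies Duxbl2 and Duxbl3 were identical over 99.96% of aligned bases, with an identical run of 2149 bases, and both copies were at or near 0 in the table, so reads of the copies may be counted under Duxbl1 or not at all.

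Genes of progenitors and of dividing cells were represented by Fabp7, Ccnd2 and Mki67. Fabp7 (chr10:57784881-57788450) encodes the brain lipid-binding protein of radial glia and retinal progenitors. Its upstream window is shown because this gene had the largest fold of the set in Tet tcKO, and holds 4 CG, in capitals.
Fabp7, chr10:57784673-57784922, plus strand, 4 CG: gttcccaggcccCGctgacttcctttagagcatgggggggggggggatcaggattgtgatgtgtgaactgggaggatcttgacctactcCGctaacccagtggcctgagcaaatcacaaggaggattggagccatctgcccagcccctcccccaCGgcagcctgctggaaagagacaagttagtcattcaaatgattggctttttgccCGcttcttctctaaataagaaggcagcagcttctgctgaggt

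Fabp7 was at 0.589, 0.509 and 0.8101 CPM in Cre-, 1.94, 2.39 and 1.28 CPM in tHet and 173, 99.2 and 119.5 CPM in Tet tcKO. The tHet libraries were within a few CPM of Cre-, whereas every Tet tcKO library was at or above 99.2 CPM, with Tet tcKO 1 the highest. In means, this was 0.636 ± 0.156 (SD, n = 3), 1.87 ± 0.559 and 131 ± 38.2 CPM. The rise from tHet to Tet tcKO was 5.78 ± 0.305 on the log2 scale (adjusted p = 2.55e-10, limma), and over all alternatives it lay between 5.499 and 6.26. Fabp7 thus met the criteria in tHet at 2.94 times Cre-, somewhat below the median of the set, and stood far outside it in Tet tcKO.

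Ccnd2, which encodes the G1 cyclin D2, was at 4.42, 3.24 and 3.11 CPM in Cre-, 7.49, 7.79 and 14.4 CPM in tHet and 22.5, 15.6 and 9.69 CPM in Tet tcKO. tHet 3 lay above Tet tcKO 3, and the difference of 0.65 ± 0.33 did not pass the test (adjusted p = 0.324, limma). Mki67, the marker of cycling cells, was at 0.353, 0.382 and 0.405 CPM in Cre-, 1.15, 1.35 and 2.42 CPM in tHet and 7.84, 4.35 and 4.46 CPM in Tet tcKO. Every Tet tcKO library was above every tHet library, and the log2 fold change of 1.497 ± 0.34 had an adjusted p of 0.01004 (limma), just above the threshold. It passed in 7 of the 19 alternative fits. Of 18 other genes of cell division, a list made after values were seen, 3 had every Tet tcKO library above every tHet library (7.35% of all genes). Without CT010467.1 in the totals 4 did (18.9% of all genes). Their summed CPM ranged from 57.6 to 64.6 in Cre- retinas, from 55.2 to 58.7 in tHet retinas and from 47.5 to 67.0 in Tet tcKO retinas. Without CT010467.1 in the totals the sums of tHet, 56.4 to 58.7, and of Tet tcKO, 64.03 to 67.1, no longer overlapped, and those of Cre- were 57.6 to 64.6. The same change of totals moved the median log2 fold change of all genes between Tet tcKO and tHet from -0.06 to 0.07.

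**Figure D2:**
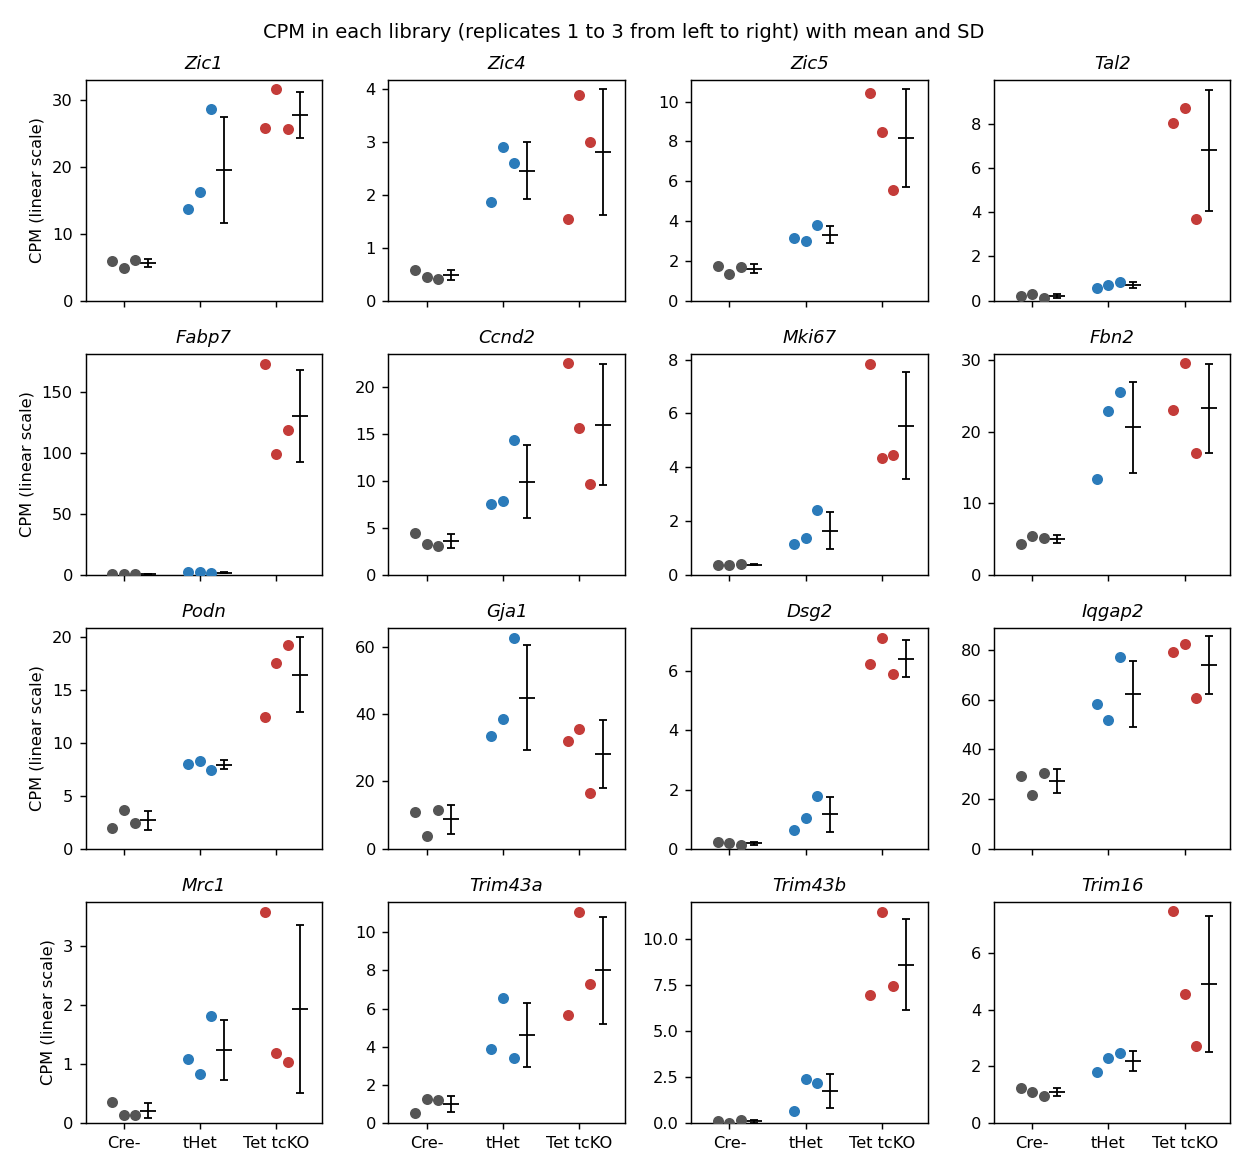
CPM on a linear axis from 0 for 16 of the genes, with 1 point per library (replicates 1 to 3 from left to right; grey Cre-, blue tHet, red Tet tcKO) and the mean with its SD beside them. The Tet tcKO points of Fabp7, Tal2, Dsg2 and Trim43b lie clear of the tHet points, while those of Zic4, Fbn2, Gja1 and Mrc1 overlap them.

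The largest role was that of secreted and matrix proteins, with 10 genes. Fbn2 (chr18:58008623-58210487) encodes fibrillin-2, a microfibril protein found in the ciliary zonule, and Ltbp1 (chr17:75005568-75392512) encodes a protein that binds latent TGF-beta to microfibrils. Fbn2 was at 4.36, 5.47 and 5.198 CPM in Cre-, 13.5, 22.9 and 25.6 CPM in tHet and 23.04, 29.7 and 17.1 CPM in Tet tcKO. The Tet tcKO and tHet ranges overlapped almost fully (log2 fold change 0.18 ± 0.28). Ltbp1 showed the same overlap at higher Cre- levels, with 6.36, 6.04 and 7.63 CPM in Cre-, 12.4, 12.05 and 17.2 CPM in tHet and 16.9, 23.9 and 12.9 CPM in Tet tcKO (log2 fold change 0.33 ± 0.27).

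Podn encodes podocan, a small leucine-rich proteoglycan. Its levels were 1.94, 3.69 and 2.43 CPM in Cre-, 7.99, 8.31 and 7.49 CPM in tHet and 12.5, 17.5 and 19.3 CPM in Tet tcKO. Unlike most members it was highest in Tet tcKO 3, and every Tet tcKO library was above every tHet library (log2 fold change 0.98 ± 0.29, adjusted p = 0.0519, limma). Olfml2a, which encodes an olfactomedin family protein of the extracellular matrix, was at 3.06, 2.0996 and 2.36 CPM in Cre-, 8.497, 6.23 and 12.8 CPM in tHet and 20.2, 21.8 and 14.1 CPM in Tet tcKO. Its Tet tcKO libraries were also all above tHet, at 1.02 ± 0.31 on the log2 scale (adjusted p = 0.053, limma). Svep1, a large adhesion protein, had the same order at low levels, with 0.412, 0.318 and 0.405 CPM in Cre-, 0.792, 1.14 and 0.805 CPM in tHet and 1.9001, 2.44 and 1.81 CPM in Tet tcKO (log2 fold change 0.85 ± 0.31). None of these 3 passed the threshold by limma, and Podn passed by DESeq2.

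Wfdc1, a secreted protein with a whey acidic protein domain, was at 1.24, 1.08 and 1.69 CPM in Cre-, 4.32, 3.32 and 3.55 CPM in tHet and 5.404, 5.67 and 3.37 CPM in Tet tcKO, with Tet tcKO 3 inside the tHet range. On totals that leave out CT010467.1, Wfdc1 in Tet tcKO 3 was 4.73 CPM, above the highest tHet value of 4.33. F5, coagulation factor V, was at 2.77, 2.99 and 2.09 CPM in Cre-, 9.43, 9.04 and 14.1 CPM in tHet and 5.7004, 20.2 and 7.11 CPM in Tet tcKO, a spread within Tet tcKO in which replicate 2 exceeded both others. The remaining secreted proteins also overlapped between tHet and Tet tcKO. Ism2 (isthmin 2) was at 1.18, 1.15 and 1.42 CPM in Cre-, 2.74, 3.12 and 4.595 CPM in tHet and 3.8003, 2.77 and 2.41 CPM in Tet tcKO. Cpz, carboxypeptidase Z, had 3 reads over the Cre- libraries, all in Cre- 1, and was at 0.648, 0.831 and 1.28 CPM in tHet and 1.31, 0.922 and 0.662 CPM in Tet tcKO. From pooled reads, Cpz was 15.6 times Cre- in tHet (exact 95% interval 5.01 to 78.6, counting error only) and 15.3 times in Tet tcKO (4.93 to 76.9).

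Cell junction proteins and membrane transporters made up 6 of the genes. Gja1 (chr10:56377330-56402513) encodes connexin 43, the gap junction protein of astrocytes, of pigment epithelium and of the ciliary epithelium. It was at 10.9, 3.69 and 11.6 CPM in Cre-, 33.6, 38.4 and 62.6 CPM in tHet and 32.01, 35.6 and 16.7 CPM in Tet tcKO. All tHet libraries were above Tet tcKO 1 and Tet tcKO 3, the highest value was that of tHet 3, and Cre- 2 was far below the other Cre- libraries. Gja1 had the lowest log2 fold change of the set between Tet tcKO and tHet, -0.68 ± 0.36 (95% interval -1.44 to 0.07), which did not pass the test (adjusted p = 0.35, limma). Dsg2 (chr18:20558074-20604521), a desmosomal cadherin, had the opposite pattern. It was at 0.235, 0.191 and 0.135 CPM in Cre-, 0.648, 1.04 and 1.8002 CPM in tHet and 6.23, 7.12 and 5.901 CPM in Tet tcKO, with 9 reads over all Cre- libraries. The Tet tcKO libraries lay close together and far above every tHet library. Dsg2 rose between tHet and Tet tcKO by 2.11 ± 0.33 on the log2 scale (adjusted p = 0.000391, limma).

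With all reads in the totals, the 4 transporters overlapped between the Cre positive genotypes. Slc7a11, the cystine and glutamate exchanger, was at 4.24, 2.93 and 4.79 CPM in Cre-, 6.26, 7.69 and 12.03 CPM in tHet and 15.3, 18.1 and 9.27 CPM in Tet tcKO, with tHet 3 above Tet tcKO 3 (log2 fold change 0.68 ± 0.32, adjusted p = 0.273, limma). Slc7a11 no longer overlapped without CT010467.1 in the totals, with 12.5 CPM in tHet 3 and 13.01 in Tet tcKO 3. Slc13a4, a sodium and sulphate cotransporter, was at 2.59, 1.59 and 1.96 CPM in Cre-, 7.71, 6.44 and 12.3 CPM in tHet and 11.8, 9.55 and 5.72 CPM in Tet tcKO, and its highest Cre positive value was that of tHet 3. The lowest was that of Tet tcKO 3, or, without CT010467.1 in the totals, the 6.44 CPM of tHet 2. Slc16a12, a creatine transporter, ranged from 1.80 to 2.18 CPM in tHet and from 1.93 to 3.36 in Tet tcKO, against 0.540 to 0.883 in Cre-. Slc6a2, the noradrenaline transporter, had 8 Cre- reads and ranged from 0.616 to 1.35 CPM in tHet and from 1.01 to 1.63 CPM in Tet tcKO.

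Among receptors, signalling and immune cell proteins, Iqgap2 (chr13:95627177-95891922) was the most abundant member in Cre- retinas. It encodes a scaffold that binds the cytoskeleton and small GTPases, and its CPM values were 29.1, 21.6 and 30.6 CPM in Cre-, 58.04, 51.7 and 77.1 CPM in tHet and 79.03, 82.2 and 60.7 CPM in Tet tcKO. Its Cre positive libraries overlapped, and the log2 fold change was 0.25 ± 0.23. Mrc1, the mannose receptor of perivascular macrophages, had 10 reads over the Cre- libraries and was at 0.353, 0.127 and 0.135 CPM in Cre-, 1.08, 0.831 and 1.8002 CPM in tHet and 3.56, 1.19 and 1.02 CPM in Tet tcKO. Tet tcKO 1 was far above both other Tet tcKO libraries, which fell inside the tHet range. The same library stood apart for Lcp2, an adaptor of blood cell signalling, at 0.5298, 0.573 and 0.203 CPM in Cre-, 0.936, 1.04 and 0.947 CPM in tHet and 2.61, 0.922 and 1.14 CPM in Tet tcKO. The 12 microglia and macrophage markers summed to 22.8 to 32.7 CPM in Cre-, 32.1 to 45.7 CPM in tHet and 38.5 to 75.8 CPM in Tet tcKO, with the highest sum in Tet tcKO 1 and none of the 12 at 0 in all libraries. Without CT010467.1 in the totals the sums no longer overlapped, at 32.2 to 47.5 CPM in tHet and 51.8 to 75.8 CPM in Tet tcKO. Their part in the levels of Mrc1 and Lcp2 was not tested. Lacc1, an enzyme of macrophages, ranged from 0.936 to 1.87 CPM in tHet and 0.903 to 1.58 CPM in Tet tcKO, against 0.254 to 0.675 in Cre-. Vmn2r7, a vomeronasal receptor gene, had 4 Cre- reads and was at 0.504, 0.623 and 0.758 CPM in tHet and 0.831, 0.791 and 0.783 CPM in Tet tcKO. The Vmn2r7 groups did not overlap, but the log2 difference was 0.21 ± 0.295 at levels of under 1 CPM.

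TRIM proteins and an F-box protein, families that include ubiquitin ligases, made up 4 of the genes. Trim43a (chr9:88580891-88588819) and Trim43b (chr9:89084624-89092835) lie on opposite strands 496 kb apart, and their transcripts are identical over 98.2% of aligned bases with the longest identical run at 203 bases. How their reads were divided is therefore uncertain. The window upstream of Trim43a is shown to contrast its single CG with the 27 of Zic1.
Trim43a, chr9:88580641-88580890, plus strand, 1 CG: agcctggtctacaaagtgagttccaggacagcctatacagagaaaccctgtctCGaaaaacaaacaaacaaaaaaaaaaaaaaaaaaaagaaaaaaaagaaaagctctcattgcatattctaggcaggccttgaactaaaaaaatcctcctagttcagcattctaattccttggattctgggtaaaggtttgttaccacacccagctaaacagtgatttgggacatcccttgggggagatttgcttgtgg

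Trim43a was at 0.5298, 1.27 and 1.22 CPM in Cre-, 3.89, 6.54 and 3.41 CPM in tHet and 5.64, 11.1 and 7.29 CPM in Tet tcKO. tHet 2 lay above Tet tcKO 1, and the log2 fold change of 0.73 ± 0.36 did not pass the test (adjusted p = 0.293, limma). Trim43b had 4 reads over the Cre- libraries and was at 0.118, 0 and 0.135 CPM in Cre-, 0.648, 2.39 and 2.18 CPM in tHet and 6.95, 11.5 and 7.47 CPM in Tet tcKO. Every Tet tcKO library was above every tHet library, and tHet 1 was lower than both other tHet libraries. Trim43b rose from tHet to Tet tcKO by 2.11 ± 0.37 on the log2 scale (adjusted p = 0.00115, limma). From pooled reads it was 20.8 times Cre- in tHet (exact 95% interval 7.79 to 78.1, counting error only) and 101 times in Tet tcKO (39.3 to 374). Trim43c, whose transcript is identical to that of Trim43a over 97.2% of aligned bases and which is no member, was at 1.001, 1.72 and 1.49 CPM in Cre-, 1.296, 2.49 and 1.47 CPM in tHet and 7.304, 14.9 and 6.14 CPM in Tet tcKO. In tHet its range overlapped that of Cre-, unlike Trim43a and Trim43b, and in Tet tcKO all 3 copies were above every Cre- library.

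Trim16, a stress response member of the TRIM family, had the smallest fold of the set in tHet, 2.01 times Cre-. It was at 1.24, 1.08 and 0.945 CPM in Cre-, 1.8002, 2.29 and 2.46 CPM in tHet and 7.48, 4.55 and 2.71 CPM in Tet tcKO. The Tet tcKO libraries were all above tHet but spread widely (log2 fold change 0.92 ± 0.35, adjusted p = 0.149, limma). Fbxw21, an F-box and WD repeat protein, was at 0.353, 0.6999 and 0.0675 CPM in Cre-, 1.37, 1.45 and 0.995 CPM in tHet and 7.13, 4.55 and 2.89 CPM in Tet tcKO. Every Tet tcKO library was above every tHet library, at 1.53 ± 0.37 on the log2 scale (adjusted p = 0.015, limma). Fbxw21 passed the threshold in 7 of the 19 alternative fits. All 4 genes of this role had a log2 fold change above 0, with a median of 1.22.

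Of the 8 other proteins, none had Tet tcKO and tHet libraries apart with all reads in the totals, and BC067074 and Ppic did without CT010467.1. Fam129a, also named Niban, was at 6.12, 4.899 and 5.67 CPM in Cre-, 14.8, 14.02 and 30.9 CPM in tHet and 14.5, 22.9 and 10.1 CPM in Tet tcKO, and tHet 3 was above all Tet tcKO libraries. Mns1, which encodes a structural protein of cilia and of meiotic cells, was at 0.765, 1.78 and 1.76 CPM in Cre-, 2.52, 11.01 and 24.1 CPM in tHet and 8.43, 16.5 and 14.3 CPM in Tet tcKO. Its tHet libraries alone spanned the range of 2.52 to 24.1 CPM. Exons of Tex9 on the opposite strand cover 52.99% of the exon bases of Mns1. Tex9 was at 10.8, 22.8 and 14.4 CPM in Cre-, 21.5, 24.7 and 17.96 CPM in tHet and 14.3, 23.3 and 13.9 CPM in Tet tcKO, all within the range of 10.8 to 24.7 CPM, and the strand setting of the counting is not given in the sources used here, so reads of Mns1 and Tex9 may be mixed.

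Tph1, the tryptophan hydroxylase of melatonin and serotonin synthesis, was at 1.59, 1.21 and 1.01 CPM in Cre-, 2.45, 3.43 and 2.98 CPM in tHet and 4.87, 5.14 and 2.35 CPM in Tet tcKO. Tmprss11e, a transmembrane serine protease, was at 0.589, 0.127 and 0.54003 CPM in Cre-, 3.38, 2.7005 and 4.03 CPM in tHet and 2.73, 4.41 and 1.99 CPM in Tet tcKO. Ppic, the peptidyl-prolyl isomerase cyclophilin C, was at 0.648, 0.573 and 1.15 CPM in Cre-, 1.94, 1.87 and 1.8002 CPM in tHet and 3.21, 2.899 and 1.93 CPM in Tet tcKO. With all reads, Tet tcKO 3 was the lowest Tet tcKO library in each of these 3 genes. Without CT010467.1 in the totals, Ppic in Tet tcKO 3 was 2.703 CPM, above the highest tHet value of 1.95, and Tmprss11e was lowest in Tet tcKO 1. BC067074 ranged from 4.90 to 7.15 CPM in tHet and from 5.66 to 12.3 CPM in Tet tcKO, against 1.28 to 3.30 CPM in Cre-, and without CT010467.1 its highest tHet value was 7.43 and its lowest Tet tcKO value 7.94 CPM. Fam167a and Klhdc7a were in Tet tcKO at 3.8003, 2.57 and 1.32 CPM and 1.66, 2.57 and 0.843 CPM. The log2 fold changes of these 8 genes between Tet tcKO and tHet lay between -0.30 and 0.53.

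Noncoding RNAs made up the last 4 genes. n-R5s33 and n-R5s155 are annotated as copies of 5S ribosomal RNA. The 5S genes are a multigene family, so how reads were divided among the copies is uncertain. n-R5s33 was at 0.294, 0.318 and 0.203 CPM in Cre-, 1.01, 0.935 and 3.27 CPM in tHet and 1.603, 1.45 and 15.2 CPM in Tet tcKO, and n-R5s155 was at 0.235, 0.191 and 0.27002 CPM in Cre-, 1.58, 0.623 and 7.296 CPM in tHet and 1.9001, 1.25 and 26.7 CPM in Tet tcKO. For both, Tet tcKO 3 was the highest library and tHet 3 the second highest, the same libraries in which CT010467.1 took 28.7% and 3.72% of reads. Without these libraries, the Cre positive values reached 1.60 CPM for n-R5s33 and 1.9001 CPM for n-R5s155. The part of ribosomal RNA removal in these values was not tested. Dancr, a long noncoding RNA that hosts small nucleolar RNAs and shares exon bases with Snora26, was at 0.706, 0.573 and 0.675 CPM in Cre-, 1.8002, 1.14 and 1.8002 CPM in tHet and 2.43, 2.899 and 1.51 CPM in Tet tcKO. Its Tet tcKO 3 value was 2.11 CPM without CT010467.1 in the totals, above every tHet library. Rab11fip4os1, annotated as an antisense transcript, was at 0.294, 0.573 and 0.338 CPM in Cre-, 1.58, 2.08 and 0.805 CPM in tHet and 0.772, 1.65 and 0.903 CPM in Tet tcKO, and its highest library was tHet 2.

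Between Tet tcKO and tHet, 297 of the 21330 genes tested rose (1.39%) and 343 fell (1.61%) with a log2 fold change of 1 or more in size and an adjusted p below 0.01. All 45 genes of the set were among those tested. Fabp7, Tal2, Dsg2 and Trim43b rose, which is 4 of 45. None of the 45 fell by limma, by edgeR or by DESeq2. At an unadjusted p under 0.05 (limma) none was lower in Tet tcKO, against 10.6% of all genes tested. Without CT010467.1 in the totals none was lower either, against 8.41%. The choice held every Tet tcKO value above the Cre- values, which limits how far a member can fall below tHet. The absence of falls is therefore not independent of the choice. Leaving CT010467.1 out of the totals moved the median log2 fold change of all genes from -0.06 to 0.07 and the calls to 427 risen and 215 fallen. On those totals Mki67, Fbxw21 and Zic5 rose as well, 7 of the 45 (1.98% of all genes). The log2 fold change was above 0 for 36 of the 45 genes with either total, against 44.3% of all genes tested with all reads and 56.8% without CT010467.1, and the median over the 45 was 0.40 with all reads and 0.50 without CT010467.1. At an unadjusted p under 0.05, 12 of the 45 were higher in Tet tcKO, against 6.9% of all genes tested, and without CT010467.1 in the totals 17 of the 45, against 15.9%.

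Every Tet tcKO library was above every tHet library for 12 of the 45 genes, namely Fabp7, Tal2, Dsg2, Trim43b, Fbxw21, Mki67, Zic5, Olfml2a, Podn, Trim16, Svep1 and Vmn2r7. This order was found in 7.35% of all genes tested. Without CT010467.1 in the totals it held for 17 of the 45, against 18.9% of all genes. The reverse order was found in none of the 45 and in 9.68% of all genes, and this absence too is not independent of the choice. The set was thus not uniform: by role, the median log2 fold change ran from 0.25 in the matrix proteins and in the receptors, signalling and immune cell proteins to 1.22 in the TRIM and F-box genes and 1.497 in the progenitor and dividing cell genes, and without CT010467.1 in the totals these medians were 0.38, 0.40, 1.35 and 1.63. For the 41 genes that did not pass the test, the 95% intervals leave room for differences in either direction or of unequal size, and a p above the threshold does not show equal levels.

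**Figure D3:**
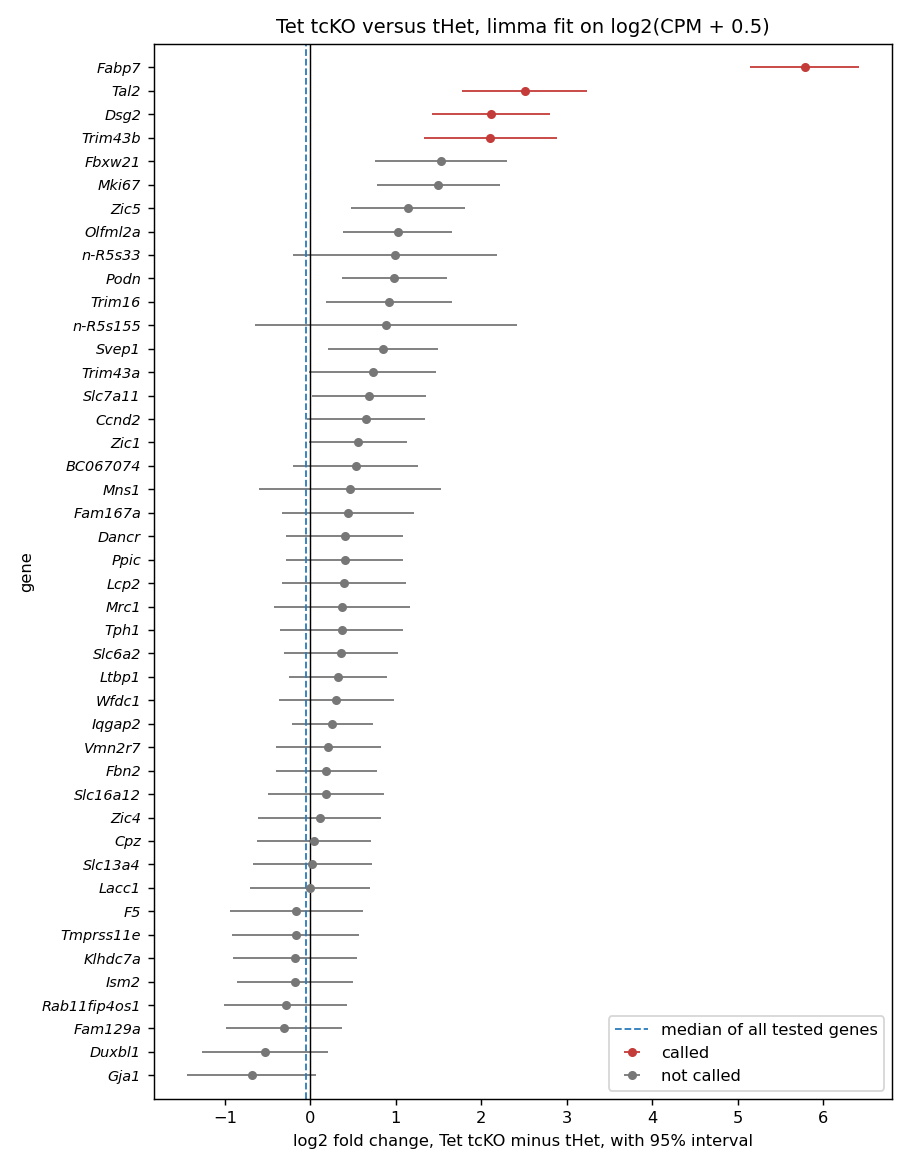
Points give the log2 fold change of Tet tcKO over tHet from the limma fit on log2(CPM + 0.5) for 44 of the 45 genes in order of size, and lines the 95% intervals. Red marks the 4 genes that passed the test, and the dashed line the median of all 21330 genes tested, -0.06. Fabp7 stands at 5.78, well above Tal2 at 2.51, and the lowest is Gja1 at -0.68.

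In the comparisons that the choice of genes used, 2 of the 45, Gja1 and Fbn2, passed the same thresholds in tHet versus Cre- (0.0422% of all genes were higher), and 29 of the 45 passed in Tet tcKO versus Cre- (2.03% of all genes were higher and 1.57% lower). These counts follow from the choice and are read no further. The number in tHet versus Cre- rested on the spread of few libraries: without Tet tcKO 3, which enters the shared estimate of the spread, limma called 0 genes of the whole table (1109 at an unadjusted p under 0.05), and without tHet 3 it called 17. With all 9 libraries limma called 9, edgeR called 1 and DESeq2 called 40, and limma called 1 when CT010467.1 was left out of the totals.

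Lists of genes of the tissues next to the retina were set beside the 45 genes. The ciliary body list holds 3 members, Wfdc1, Zic1 and Gja1. Of its 11 tested genes, Optc and Gja1 passed as higher in tHet than in Cre-, and between Tet tcKO and tHet Aqp1 and Cldn2 fell. Gja1 is a member and Optc met the same level criteria, so both passes against Cre- follow from the choice and are no result of the list. By edgeR none of the 11 passed in either comparison, and by DESeq2 Optc, Wfdc1, Zic1 and Gja1 passed in tHet versus Cre- and Cldn2 fell and Zic2 rose between Tet tcKO and tHet. Without CT010467.1 in the totals none passed in tHet versus Cre-, and between Tet tcKO and tHet Aqp1 no longer passed and Zic2 rose. In Tet tcKO versus Cre-, 5 of the 11 passed as higher, namely Zic2 and, following from the choice, Optc and the 3 members. Zic2 (log2 fold change 1.95) and Aqp1, which was lower (-3.38), passed there by edgeR, by DESeq2 and without CT010467.1 as well. At an unadjusted p under 0.05 (limma) 8 of the 11 differed in tHet versus Cre-, 7 of them higher (970 of all 21330 genes). List medians against Cre- were 1.19 in tHet and 0.96 in Tet tcKO on the log2 scale (0.06 and 0.001 for all genes). These include the members and Optc and so partly follow from the choice. Without its members, the list summed to 268 to 320 CPM in Cre-, 249 to 317 CPM in tHet and 189 to 312 CPM in Tet tcKO, ranges that overlap. Optc stays in these sums, at 1.21 to 7.42 CPM in Cre- and 42.1 to 98.9 CPM in tHet, so they do not show how the other genes moved. The pigment epithelium and melanocyte list holds no member and had higher sums in tHet (171 to 261 CPM) than in Tet tcKO (54.7 to 77.0), while Cre- ranged from 55.8 to 194. Of its 12 tested genes, none passed in tHet versus Cre- by limma, edgeR or DESeq2. At an unadjusted p under 0.05 (limma) 7 differed, all of them higher in tHet (970 of all 21330 genes differed). The list median in that comparison was 0.88 on the log2 scale (0.06 for all genes). Lrat and Rpe65 were lower in Tet tcKO than in Cre- (Rpe65 alone by edgeR and without CT010467.1). Lrat, Ttr, Rpe65 and Tyr were among the 5 that fell from tHet to Tet tcKO. Leaving out CT010467.1 kept 3 of these 5 falls and edgeR 2. Pigment sums in libraries 1 to 3 were 194, 55.8 and 128 CPM in Cre- and 227, 171 and 261 CPM in tHet. In Tet tcKO they were 77.0, 73.7 and 54.7 CPM. Gja1 is also a gene of pigment epithelium, and its values in the same libraries are given above. tHet 3 was the highest tHet library for 29 of the 45 genes. The part of these tissues in the levels of the 45 genes was not tested.

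**Figure D4:**
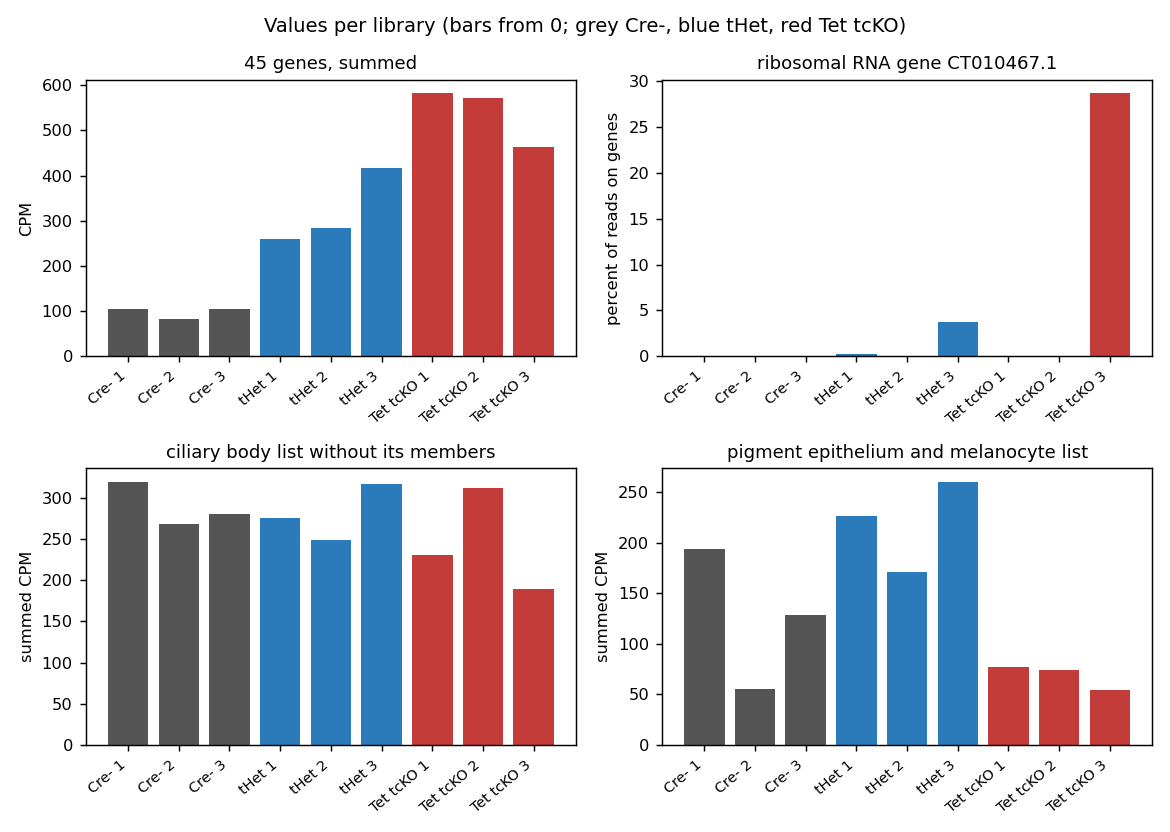
Bars from 0 give, for each of the 9 libraries (grey Cre-, blue tHet, red Tet tcKO), the summed CPM of the 45 genes, the percent of reads on CT010467.1, and the summed CPM of the ciliary body list without its members and of the pigment epithelium and melanocyte list. The 45 genes sum to 83.5 to 105 in Cre- and to 259 or more in every Cre positive library. The ciliary body sums, which still include Optc, overlap between genotypes, and the pigment sums are lowest in Tet tcKO and Cre- 2.

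Among matrix gene families, the elastic fibre and microfibril list holds Fbn2 and Ltbp1. Of its 16 tested genes, Fbn2 and Fbln1 passed as higher in tHet than in Cre-, and Ltbp1 as well in Tet tcKO. The medians over the list were 0.69 and 0.55 on the log2 scale (0.06 and 0.001 for all genes). They include Fbn2, Ltbp1 and Fbln1, which met the criteria of the choice, and so partly follow from it. None of the 16 passed between Tet tcKO and tHet by limma, edgeR or DESeq2 (2 at an unadjusted p under 0.05, 3732 of all 21330 genes), where the median was 0.07. The proteoglycan list holds Podn, and of its 12 tested genes Optc and Vcan passed in tHet versus Cre- and Podn as well in Tet tcKO versus Cre-. Fbln1, Optc and Vcan met the same level criteria as the 45 genes and were left out by name, so they are no independent case. In tHet versus Cre-, edgeR and totals that leave out CT010467.1 called none of either list, and DESeq2 called 5 elastic fibre genes (Ltbp2, Fbln1, Fbn2, Fbn1 and Mfap4) and 4 proteoglycan genes (Optc, Vcan, Podn and Fmod). Of the 29 genes of TGF-beta and BMP signalling, none passed in tHet versus Cre- by limma, edgeR or DESeq2 (3 at an unadjusted p under 0.05, 970 of all 21330 genes). Inhbb rose from tHet to Tet tcKO, with Gdf10 as well without CT010467.1 in the totals. Other lists without a member had calls between Tet tcKO and tHet (1.39% of all genes rose and 1.61% fell). These were 3 of 15 matricellular genes and 2 of 17 immediate early genes. The lists of 12 endothelial, 11 gliosis, 10 insulin-like growth factor and 18 matrix protease genes had 1 each. Of 18 collagen enzyme genes 2 passed in Tet tcKO versus Cre-. None of these lists had a call in tHet versus Cre-. A further 9 lists were grouped because limma called none of their genes, and they hold no member. They are those of laminins and other basement membrane genes, fibroblasts, pericytes, lens, cornea, blood, astrocytes and oligodendrocytes, p53 targets and interferon response. Of their 93 tested genes limma called 0 in each of the 3 comparisons. At an unadjusted p under 0.05 (limma) there were 10 in tHet versus Cre-, 33 in Tet tcKO versus Cre- and 12 in Tet tcKO versus tHet. Over all 21330 genes there were 970, 3427 and 3732. Of the 93, edgeR called 0, 1 and 0, DESeq2 called 0, 7 and 2, and limma without CT010467.1 in the totals called 0, 1 and 1. A list without a call is thus not shown to be unchanged. The astrocyte and oligodendrocyte genes summed to 229 CPM in tHet 3, the library highest for 29 members, against 64.0 to 88.7 in the other tHet and the Cre- libraries and 70.9 to 166 in Tet tcKO (238 in tHet 3 and 96.8 to 166 in Tet tcKO without CT010467.1), and their part in the members' levels was not tested.

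The 45 genes were spread over the genome, with 6 of them on chromosome 9 (Fbxw21, Mns1, Trim43a, Trim43b, Zic1 and Zic4), which holds 5.77% of the genes tested. Fabp7 and Gja1 lie 5.02 and 6.402 Mb from Tet1. Every other member lies on another chromosome or at least 43.7 Mb away from the Tet genes. By type, 41 are protein coding, 2 are ribosomal RNAs, 1 is a processed transcript and 1 an antisense RNA.

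RefSeq windows of the 250 bases before the start were at hand for 29 of the 45 genes, in 33 windows. They held a median of 7 CG, against 14 in the 16421 windows of all tested genes. At most 5 CG were found in 42.4% of the members' windows and 23.2% of all windows, and at least 15 in 24.2% and 47.2%. The members' windows ranged from 0 to 38 CG, and those printed above run from 1 in Trim43a through 4 in Zic4 and Fabp7 to 27 in Zic1. The TATA box letters TATAAA, read on both strands, were in the windows of Svep1 and Tal2 (6.06% of members' windows, 7.28% of all). The ZIC core CCTGCTG, also on both strands, was in 6 windows, those of Dancr, F5, Fabp7, Iqgap2, Mrc1 and Slc13a4 (18.2%, against 8.88% of all windows). A match of letters is a description of the sequence and not a binding site. Members without a window include BC067074, Ccnd2, Dsg2, Duxbl1, Fam167a, Fbn2, Ppic, Rab11fip4os1, Slc6a2, Tmprss11e, Trim16, Trim43b, Wfdc1, n-R5s155 and n-R5s33.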

How the data were processed

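Libraries were depleted of ribosomal RNA and stranded, and the authors trimmed reads with Trim Galore 0.6.7, aligned them to mm10 with STAR 2.7.0f and counted them on genes with HTSeq 0.11.2, according to the study's methods and the submitters' processing notes. The annotation release and the strand setting of counting are not given in the sources used here. The authors deposited CPM (reads of a gene per 1000000 reads on genes) for 55487 genes. The fold changes, p-values and false discovery rates they deposited for their own edgeR comparisons were not used.

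All CPM values above 0 were whole multiples of 1 read within 0.01 reads (100%), so whole reads were recovered, 9627927 to 21108256 per library. Intervals from reads cover counting error only. Groups came from the sample titles. Genes that reached 0.5 CPM in 3 or more of the 9 libraries were tested with limma 3.58.1 (lmFit, eBayes with trend, R 4.3.3) on log2(CPM + 0.5), fitting all 9 libraries together with a mean per genotype. P-values were adjusted by Benjamini-Hochberg, and a gene was called when its log2 fold change was 1 or more in size with an adjusted p below 0.01. Fold changes on this scale understate those of scarce genes. Alternatives, among them edgeR 4.0.16 and DESeq2 1.42.0 on recovered reads, were computed, and the tests were checked on simulated data. The version of the totals without CT010467.1 was chosen after seeing the data.

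Values of 1 of the 45 genes are not reported here, although it is counted in the sums and counts. The 45 genes, their roles and the gene lists were chosen with earlier results of these data known. Values per library are given for the 12 members with the highest mean CPM, members called in Tet tcKO versus tHet, members of a gene list, and further members for which a result turns on them. Positions are those of GENCODE M21 on GRCm38, and CPM per kb uses the merged exon length. Figures were drawn with matplotlib 3.10.9.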

Additional observations from a re-analysis of the deposited data

How the results depend on the processing

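Applied to TMM-scaled values the criteria gave 41 genes, 37 of them among the 45, and to upper-quartile scaled values 35 genes, 33 of them among the 45. A margin of 2 in place of 1.3 left 18 genes and a lowest value of 1 CPM left 29. Totals without CT010467.1, chosen after seeing the data, gave 59 genes including all 45. Leaving out 1 library at a time gave 46 to 72 genes, with the most without Cre- 3 (72) and Cre- 2 (71).

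Of the 45, limma called 4 in Tet tcKO versus tHet, and 3 to 6 without 1 library, 8 by DESeq2, 7 without CT010467.1 and 7 at an adjusted p under 0.05. Fabp7, Tal2 and Dsg2 were called in all 20 fits and Trim43b in 17, with no filter on low values, without tHet 1 and without Tet tcKO 3 as the exceptions. The log2 fold changes of Fbn2 and Zic4 changed sign when 1 library was left out, between -0.089 and 0.38 and between -0.13 and 0.42.

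Over all genes, calls in Tet tcKO versus tHet were 640, and 351 without a filter, 1046 by DESeq2, 1104 at an adjusted p under 0.05 and 252 to 973 without 1 library (252 without Tet tcKO 1, 328 without Tet tcKO 3, 338 without tHet 1, 973 without tHet 3). Calls in Tet tcKO versus Cre- were 768, and 417 without a filter, 1156 at an adjusted p under 0.05 and 331 to 982 without 1 library (423 without Cre- 3, 331 without Tet tcKO 1, 389 without Tet tcKO 3). Calls in tHet versus Cre- were 9, and 1 without a filter, with TMM scaling, with upper-quartile scaling, by edgeR or without CT010467.1, 40 by DESeq2, 20 at an adjusted p under 0.05 and 0 to 17 without 1 library.

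Replicate numbers do not mark a shared animal. Deviations from the genotype means of same-numbered libraries correlated at -0.35 to 0.56 (mean 0.11, 9 pairs). Those of different-numbered libraries correlated at -0.57 to 0.50 (mean -0.05, 18 pairs). The numbers were not taken to pair libraries, as nothing states a shared preparation. With the replicate block, 1125 genes were called in Tet tcKO versus tHet (640 without it), 1127 in Tet tcKO versus Cre- (768) and 40 in tHet versus Cre- (9). In Tet tcKO versus tHet 6 of the 45 genes were called, adding Fbxw21 and Mki67. The number of calls thus depends on whether the numbers are taken to pair libraries.

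Depth limits the scarce members: a single read is 0.0474 to 0.104 CPM, and 3 reads over all Cre- libraries lie behind Cpz and 4 behind Trim43b and Vmn2r7. The causes of these changes were not tested.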
